A study of Mus musculus with 16 samples.

Results

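The question was whether the liver's answer to pemafibrate, an agonist of the nuclear receptor PPARα, differs when FAT10 is overexpressed. All 16 libraries of the series entered it, 4 mice in each of 4 groups. The mice were wild-type C57BL/6J, 8 weeks old when the same number of genome copies of a control adenovirus (Ad-CTRL) or of an adenovirus overexpressing FAT10 (Ad-FAT10) was injected into the tail vein. After 4 days they received pemafibrate at 1 mpk (Pema) or the vehicle CMC by gavage. The doses came 18 h and 5 h ahead of the collection of the liver, and all mice were fasted for 5 h. Every group, controls included, thus carries an adenovirus and a fast, and the sources used here name no promoter that drives FAT10. The interaction of a gene is its log2 response to pemafibrate (Pema against CMC) in Ad-FAT10 livers minus the same response in Ad-CTRL livers. Of 14770 genes tested, 23 had a called interaction (edgeR adjusted p under 0.05), which is 0.156% of the genes.

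PPARα, bound by fatty acids or by fibrates such as pemafibrate, pairs with RXR and switches on genes of fatty acid uptake, oxidation and ketone formation in the fasted liver. FAT10, encoded by Ubd, is a ubiquitin-like protein induced by interferon-γ and tumour necrosis factor that is attached to other proteins and takes them to the proteasome. A called gene is described here as blunted where both responses passed the test in the same direction and the Ad-FAT10 response was the smaller, as lost where the response passed in Ad-CTRL livers alone, and as opposite where the responses passed in opposite directions. It would be amplified where the Ad-FAT10 response was the larger, and gained where the response passed in Ad-FAT10 livers alone.

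The labels held in the counts. Ubd, the targeted gene, was at 110.5 CPM (counts scaled to library size) or more in the 8 Ad-FAT10 libraries and at 47.8 CPM or less in the 8 Ad-CTRL libraries. Its level was not the same in the 2 Ad-FAT10 groups. It was at 110.5, 166.6, 339.3 and 330.2 CPM under CMC and at 545.8, 442.4, 391.3 and 459.6 CPM under pemafibrate, without overlap. The part of this difference in the drug responses was not tested. The 16 hepatocyte markers, none at 0, summed to 100400 to 128900 CPM in Ad-CTRL CMC and 81630 to 112000 in Ad-CTRL Pema, and to 69700 to 85410 and 54150 to 72270 CPM in the matching Ad-FAT10 groups. A library held 18663498 to 28898229 counts, and 3 counts, the limit that a count of 0 allows, were 0.104 to 0.161 CPM (counting error only). The livers farthest apart on the third principal component were Ad-FAT10 Pema replicates 1 and 3 (35.4 and -29.1, 4.68% of the variance), and the calls lost without them are given with those lost in the fits that leave out 1 library. Ad-FAT10 also differed in make-up, the 10 most abundant genes taking 12.8% to 16.3% of the counts there and 18.1% to 20.1% in Ad-CTRL libraries. Whether Ubd reads came from the adenovirus or from the mouse gene cannot be told from the counts.

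Pemafibrate changed many genes with either adenovirus. In Ad-CTRL livers 2389 genes were higher and 2134 lower (16.2% and 14.4% of the genes tested), and in Ad-FAT10 livers 1898 were higher and 1852 lower (12.9% and 12.5%). Ad-FAT10 differed from Ad-CTRL in 6293 genes under CMC (42.6%) and in 6160 under pemafibrate (41.7%). Set against these, called differences between the drug responses were few. An interaction joins 4 group means and each comparison above joins 2, so its standard error is the larger and the counts are not at equal power. Few calls therefore do not show that few responses differ. The response was more negative in Ad-FAT10 livers for 19 genes (0.129%) and more positive for 4 (0.0271%), a split of 13 and 5 when libraries were scaled by their totals alone. Without Ad-FAT10 Pema replicates 1 and 3 the called genes numbered 17, of which 12 were among the 23.

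Of the 23 called genes 11 were blunted, 9 in a rise and 2 in a fall, 9 were lost, 7 rises and 2 falls, and 3 were opposite, all of them rises in Ad-CTRL livers. None was amplified and none gained by edgeR. At an unadjusted p under 0.05, which 1591 genes passed (10.8%), 661 more positive (4.48%) and 930 more negative (6.3%), the same sorting gave 282 blunted, 654 lost, 7 opposite, 49 amplified, 264 gained and 335 with neither response called. DESeq2 called 120 interactions, 39 blunted, 57 lost, 6 opposite, 1 amplified and 17 gained, and limma voom called 87, of which 30 were blunted, 39 lost, 11 opposite and 7 gained. The classes are sorted on the responses themselves, so the counts describe the called genes and carry no test of their own.

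**Figure D1:**
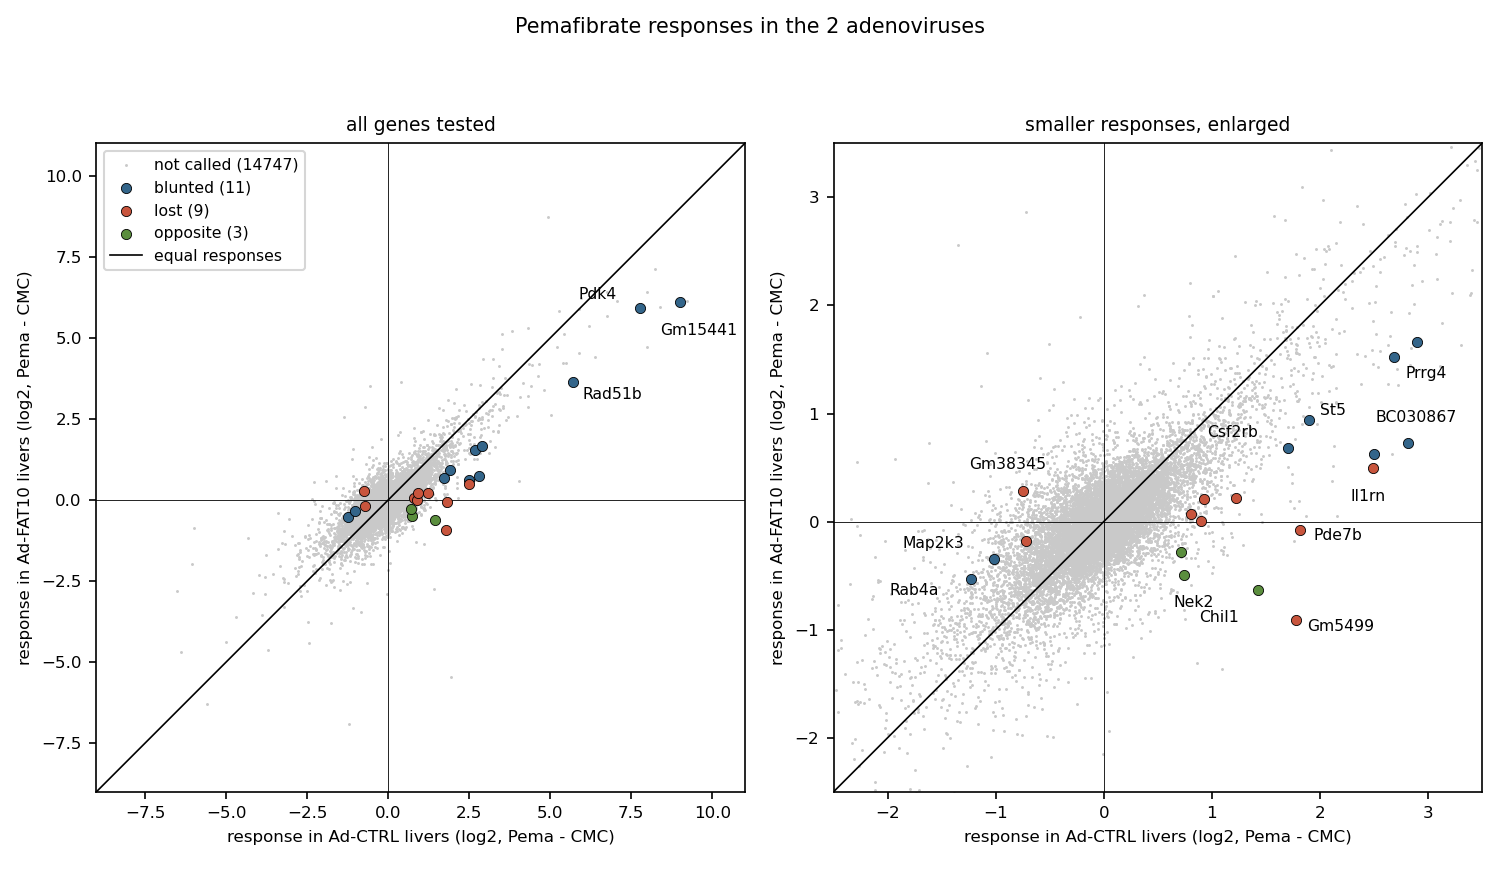
Log2 response to pemafibrate (Pema minus CMC) of every tested gene in Ad-CTRL livers (x axis) and in Ad-FAT10 livers (y axis), over the whole range on the left and enlarged on the right; grey points are genes whose interaction was not called and coloured points the 23 called genes by class. The called rises lie below the line of equal responses and the 4 called falls above it, with Pdk4 at 7.77 and 5.91 among the largest responses. Chil1, Nek2 and Ipmk, classed as opposite, lie above 0 on the x axis and below 0 on the y axis. So do Pde7b and Gm5499, classed as lost because their Ad-FAT10 responses did not pass.

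The called genes are described by the known roles of their products, a grouping made after the calls and not tested. Il1rn encodes the secreted antagonist of the interleukin-1 receptor. Il1rn stood at 15.3, 8.36, 8.37 and 8.64 CPM in the Ad-CTRL CMC livers and at 51.7, 62.4, 59.4 and 53.2 CPM in the Ad-CTRL Pema livers. With Ad-FAT10 its level was 36.4, 24.9, 51.7 and 44.0 CPM under CMC and 60.6, 44.8, 68.1 and 47.2 CPM under pemafibrate. Both Pema groups and the Ad-FAT10 CMC group lay above every Ad-CTRL CMC liver, and the Pema groups overlapped each other. The rise of 2.49 (log2) in Ad-CTRL livers was called and the 0.49 in Ad-FAT10 livers was not (edgeR adjusted p = 0.088). Its interaction was -1.996 ± 0.30 (SE, adjusted p = 0.0106). Il1rn was thus higher with Ad-FAT10 under CMC by 1.96 (adjusted p = 3.83e-06), and under pemafibrate the difference was -0.04 (adjusted p = 0.895).

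Chil1 encodes a chitinase-like secreted protein of inflamed tissue. Chil1 stood at 0.645, 0.508, 0.231 and 0.360 CPM in the Ad-CTRL CMC livers and at 0.830, 1.28, 1.45 and 1.10 CPM in the Ad-CTRL Pema livers. The Ad-FAT10 CMC livers held 4.17, 4.28, 3.47 and 4.67 CPM and the Ad-FAT10 Pema livers 3.01, 2.40, 2.29 and 3.02 CPM. All 8 Ad-FAT10 livers lay above all 8 Ad-CTRL livers, and with the drug the level went up in one adenovirus and down in the other, without overlap. The responses were 1.43 with Ad-CTRL (adjusted p = 0.000687) and -0.63 with Ad-FAT10 (adjusted p = 0.0208), with an interaction of -2.06 ± 0.34 (adjusted p = 0.0148). In the Ad-CTRL CMC libraries 3 counts were 0.128 to 0.161 CPM, so the Ad-CTRL response of Chil1 starts from few counts and is limited by depth. Csf2rb, the shared β subunit of the receptors for interleukin-3, interleukin-5 and GM-CSF, was at 15.1, 10.9, 13.4 and 14.0 CPM in Ad-CTRL CMC and at 36.7, 39.9, 56.3 and 41.2 CPM in Ad-CTRL Pema livers. In Ad-FAT10 livers it was at 45.4, 35.0, 37.0 and 31.8 CPM under CMC and at 55.5, 60.7, 69.8 and 53.4 CPM under pemafibrate, where the adenoviruses overlapped. It rose in both adenoviruses, by 1.71 and 0.68, with an interaction of -1.02 ± 0.20 (adjusted p = 0.0492). This call was lost with RLE scaling, upper-quartile scaling or library totals. Csf2rb has a close copy, Csf2rb2, whose reads the counting may have shared with it. Csf2rb2 was at 4.35 ± 0.814, 4.15 ± 0.381, 12.7 ± 2.23 and 10.3 ± 3.91 CPM (SD, n = 4) in the 4 groups, Ad-CTRL first and CMC before Pema, and its interaction was -0.23 (adjusted p = 0.844).

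Rc3h1 encodes Roquin-1, an RNA-binding protein that promotes the decay of messenger RNAs of inflammatory proteins. It rose from 27.4 ± 0.896 to 48.0 ± 2.52 CPM (SD, n = 4) in Ad-CTRL livers, while Ad-FAT10 livers were at 32.9 ± 3.40 and 34.5 ± 3.15 CPM with overlapping groups. Its interaction of -0.74 ± 0.12 (adjusted p = 0.0148) was not called without Ad-FAT10 Pema replicates 1 and 3 (adjusted p = 0.0822). White blood cell markers differed between the same groups. The 15 neutrophil markers, none at 0, summed to 12.1 to 22.2 CPM in Ad-CTRL CMC, 8.78 to 13.8 in Ad-CTRL Pema, 47.6 to 168 in Ad-FAT10 CMC and 22.3 to 34.5 in Ad-FAT10 Pema. The 14 markers of monocytes and recruited macrophages, none at 0, summed to 204 to 363, 400.3 to 517, 425 to 547 and 373 to 572 CPM in the same order. Such a sum is weighted to the abundant members. Gene by gene, the median response of these 14 was -0.15 in Ad-CTRL livers, with 3 called higher and 1 lower (16.2% and 14.4% of all genes). In Ad-FAT10 livers it was -0.21, with 0 called higher and 1 lower (12.9% and 12.5% of all genes). The part of white blood cells in the values of Il1rn, Chil1 and Csf2rb was not tested. In bulk liver, fewer cells of a type and less RNA per cell cannot be told apart.

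The cell cycle and p53 target lists had no called member, but Pawr, Nek2 and Rad51b have known roles in cell death, division and repair. Pawr encodes PAR-4, a protein that favours apoptosis. Pawr stood at 9.33, 10.99, 10.6 and 9.93 CPM in the Ad-CTRL CMC livers and at 23.3, 26.3, 24.7 and 21.3 CPM in the Ad-CTRL Pema livers. In the Ad-FAT10 livers it stood at 17.0, 17.9, 24.2 and 18.9 CPM under CMC and at 21.7, 24.8, 22.8 and 21.4 CPM under pemafibrate. The Ad-CTRL CMC livers lay below all 12 others, as they did for Il1rn. Pawr rose by 1.22 in Ad-CTRL livers, its 0.22 in Ad-FAT10 livers did not pass (adjusted p = 0.152), and the interaction was -1.01 ± 0.15 (adjusted p = 0.0106). The gene has its neighbour Gm36283, a long noncoding RNA on the same strand of chromosome 10, among the called genes. Gm36283 had the smallest adjusted p of all genes (0.00263), with 0.762, 0.739, 0.508 and 0.720 CPM in Ad-CTRL CMC and 3.84, 4.06, 3.74 and 3.88 in Ad-CTRL Pema. In Ad-FAT10 livers it was at 2.06, 2.87, 2.64 and 2.51 CPM under CMC and 4.28, 3.74, 4.18 and 3.38 under pemafibrate. Its rises were 2.50 and 0.62, so 24.9% of the Ad-CTRL log2 response was kept (interaction -1.88 ± 0.23).

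Nek2 encodes a centrosomal kinase of dividing cells. Nek2 stood at 5.22, 7.95, 6.93 and 5.04 CPM in the Ad-CTRL CMC livers and at 11, 9.46, 11.02 and 10.8 CPM in the Ad-CTRL Pema livers. With Ad-FAT10 its level was 19.7, 14.7, 19.6 and 23.3 CPM under CMC and 12.0, 15.6, 12.2 and 15.2 CPM under pemafibrate. The Ad-FAT10 CMC livers were the highest group, and pemafibrate brought the adenoviruses closer from both sides. The responses were 0.75 (adjusted p = 0.00164) and -0.49 (adjusted p = 0.02), and the interaction was -1.24 ± 0.22 (adjusted p = 0.0235). Rad51b encodes a protein of DNA repair by homologous recombination, and its drug response was among the large ones. Rad51b stood at 0.528, 0.647, 1.71 and 1.39 CPM in the Ad-CTRL CMC livers and at 59.8, 43.8, 64.6 and 58.2 CPM in the Ad-CTRL Pema livers. The Ad-FAT10 CMC livers held 2.52, 5.66, 3.61 and 5.18 CPM and the Ad-FAT10 Pema livers 60.6, 52.5, 38.3 and 60.0 CPM. Under pemafibrate the adenoviruses overlapped, and under CMC they did not. Rad51b rose by 5.70 and 3.62, 63.6% of the log2 response being kept, with an interaction of -2.07 ± 0.38 (adjusted p = 0.0328).

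In Ipmk, Pde7b, Gprin3 and Map3k5 the difference between the adenoviruses was called under pemafibrate and not under CMC. Ipmk encodes inositol polyphosphate multikinase, which makes higher inositol phosphates. Ipmk stood at 73.3, 90.8, 69.2 and 65.2 CPM in the Ad-CTRL CMC livers and at 124, 118, 122 and 125 CPM in the Ad-CTRL Pema livers. In the Ad-FAT10 livers it stood at 67.5, 73.6, 59.5 and 61.0 CPM under CMC and at 50.5, 54.1, 54.3 and 56.8 CPM under pemafibrate. The CMC groups overlapped, and the lowest Ad-CTRL Pema liver lay above the highest Ad-FAT10 Pema liver. Ipmk rose by 0.72 in Ad-CTRL livers and fell by 0.28 in Ad-FAT10 livers (adjusted p = 0.0429), with an interaction of -0.99 ± 0.14 (adjusted p = 0.00774). Pde7b encodes a phosphodiesterase that breaks down cyclic AMP. Pde7b stood at 6.04, 4.94, 5.55 and 4.73 CPM in the Ad-CTRL CMC livers and at 16.4, 15.1, 24.2 and 19.2 CPM in the Ad-CTRL Pema livers. With Ad-FAT10 its level was 6.51, 5.2, 3.76 and 3.26 CPM under CMC and 4.86, 4.08, 4.87 and 3.84 CPM under pemafibrate. The Ad-CTRL Pema livers stood above all other livers, and the remaining groups overlapped. Pde7b rose by 1.82 in Ad-CTRL livers, against -0.07 in Ad-FAT10 livers (adjusted p = 0.831), an interaction of -1.895 ± 0.27 (adjusted p = 0.00856).

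Gprin3 and Map3k5 also had their highest levels in the Ad-CTRL Pema livers. Gprin3 belongs to a family of proteins that bind activated G proteins. Gprin3 stood at 26.4, 31.7, 28.6 and 29.8 CPM in the Ad-CTRL CMC livers and at 53.5, 53.3, 55.2 and 55.8 CPM in the Ad-CTRL Pema livers. The Ad-FAT10 CMC livers held 29.7, 26.8, 28.2 and 29.1 CPM and the Ad-FAT10 Pema livers 34.5, 31.4, 21.01 and 27.4 CPM. Its response was 0.90 with Ad-CTRL and 0.00 with Ad-FAT10 (adjusted p = 0.99), and the interaction -0.90 ± 0.16 (adjusted p = 0.0235). This call was lost after a correction for transcript length and GC content (adjusted p = 0.0607). Map3k5 encodes ASK1, a stress-activated kinase upstream of JNK and p38. Map3k5 stood at 38.7, 43.3, 39.6 and 41.9 CPM in the Ad-CTRL CMC livers and at 69.5, 82.1, 86.6 and 72.7 CPM in the Ad-CTRL Pema livers. In the Ad-FAT10 livers it stood at 42.1, 39.7, 50.4 and 47.9 CPM under CMC and at 48.4, 55.5, 49.2 and 55.03 CPM under pemafibrate. Again the Ad-CTRL Pema livers alone stood above the rest. Map3k5 rose by 0.93 in Ad-CTRL livers, its 0.21 in Ad-FAT10 livers did not pass (adjusted p = 0.117), and the interaction was -0.72 ± 0.13 (adjusted p = 0.0326).

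The called falls were those of Map2k3, Rab4a, Madd and Gm38345. Map2k3 encodes MKK3, a kinase that activates p38. It was at 104 to 132 CPM under CMC and 57.0 to 66.4 CPM under pemafibrate in Ad-CTRL livers, and 79.5 to 87.0 and 63.8 to 68.2 CPM in Ad-FAT10 livers, where the Ad-FAT10 CMC livers already lay below every Ad-CTRL CMC liver. It fell in both, by 1.02 and 0.34, with an interaction of 0.67 ± 0.12 (adjusted p = 0.0235). Map2k3os, annotated beside it, had an interaction of 1.27 (adjusted p = 0.129), and the strand setting of the counting is not given in the sources used here. Rab4a, a GTPase of endosomal recycling, fell by 1.23 and 0.53 (interaction 0.70 ± 0.14, adjusted p = 0.0492). Its levels were at 31.0 to 31.8 CPM under CMC and 12.9 to 14.2 CPM under pemafibrate in Ad-CTRL livers, and 18.1 to 22.6 and 12.1 to 16.7 CPM in Ad-FAT10 livers. Madd, a guanine nucleotide exchange factor for Rab3 that also binds a tumour necrosis factor receptor, fell by 0.72 in Ad-CTRL livers, and its -0.18 in Ad-FAT10 livers did not pass (adjusted p = 0.0719). Madd had the smallest called interaction, 0.54 ± 0.10 (adjusted p = 0.0443), with 30.8 to 31.5 and 18.2 to 20.2 CPM in the Ad-CTRL groups and 23.4 to 27.4 and 21.3 to 23.6 CPM in the Ad-FAT10 groups.

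Among genes with roles in membranes and their traffic, Atp10d, Prrg4 and St5 were blunted rises. Atp10d encodes a lipid flippase, although the GENCODE annotation lists it as a polymorphic pseudogene in this reference strain. It rose from 2.58 ± 0.198 to 19.4 ± 2.31 CPM in Ad-CTRL and from 3.85 ± 0.522 to 12.1 ± 2.27 CPM in Ad-FAT10 livers (SD, n = 4), with no overlap between the adenoviruses under either treatment. The interaction was -1.25 ± 0.21 (adjusted p = 0.0148), and 57.1% of the log2 response was kept. Prrg4, a transmembrane protein with a vitamin K-dependent Gla domain, was higher with Ad-FAT10 under both treatments. It was at 0.772 to 1.39 CPM under CMC and 5.93 to 7.33 CPM under pemafibrate in Ad-CTRL livers, and 3.79 to 4.60 and 11.2 to 12.97 CPM in Ad-FAT10 livers. It rose in both. The Ad-FAT10 response was the smaller on the log2 scale (interaction -1.16 ± 0.21, adjusted p = 0.0253), from a higher CMC level, while in CPM its rise was the larger. St5, also named Dennd2b, a regulator of Rab GTPases, was at 17.0 to 21.6 CPM under CMC and 62.0 to 79.7 CPM under pemafibrate in Ad-CTRL livers, and 26.6 to 32.9 and 47.6 to 66.5 CPM in Ad-FAT10 livers. It rose in both, by 1.90 and 0.94, with an interaction of -0.97 ± 0.16 (adjusted p = 0.0148). Exons of St5 overlap Gm44864 on the other strand, and those of Nek2 overlap Gm38037.

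**Figure D2:**
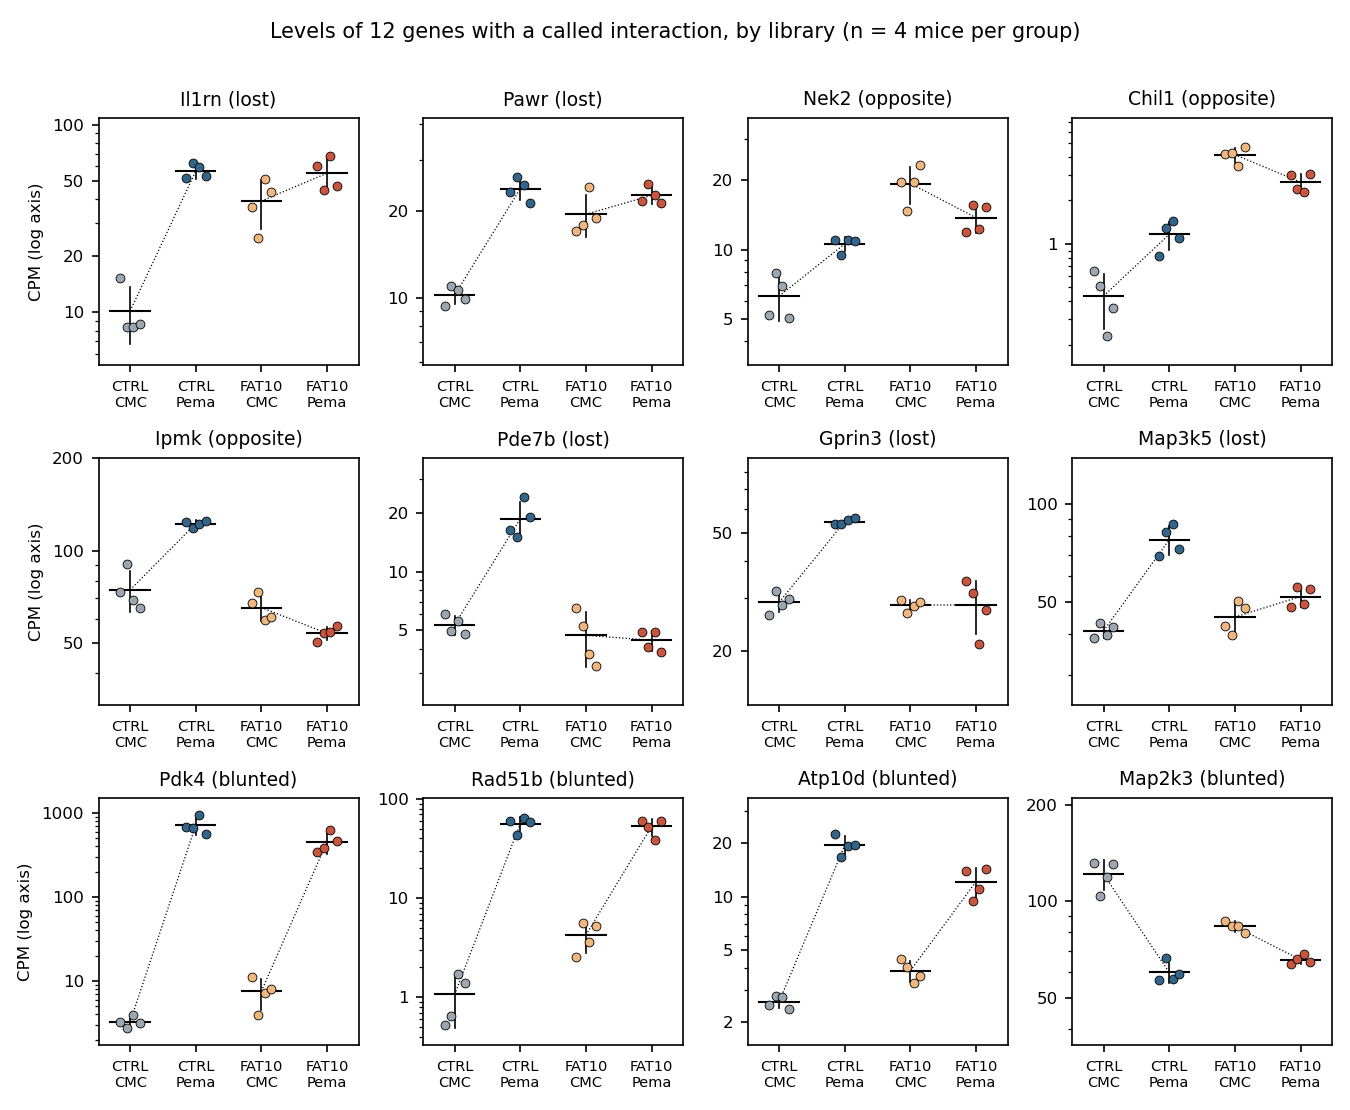
Level in CPM (log axes) of 12 called genes in each of the 16 livers, with CTRL for Ad-CTRL and FAT10 for Ad-FAT10; points are livers, bars the group mean and SD (n = 4), and dotted lines join CMC to Pema within an adenovirus. In the upper row Ad-FAT10 livers stood above Ad-CTRL livers under CMC, in the middle row the Ad-CTRL Pema livers stood above all others, and in the lower row both adenoviruses responded, the Ad-FAT10 livers by less on the log scale.

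Pdk4 was the only called gene among the 62 tested members of the PPARα target list. It encodes the kinase that shuts off pyruvate dehydrogenase when fat is burned. Pdk4 stood at 3.23, 2.77, 3.98 and 3.14 CPM in the Ad-CTRL CMC livers and at 688, 661, 951 and 567 CPM in the Ad-CTRL Pema livers. With Ad-FAT10 its level was 11.2, 3.90, 7.19 and 7.97 CPM under CMC and 342, 382, 625 and 461 CPM under pemafibrate. In both adenoviruses every Pema liver lay far above every CMC liver. The adenoviruses overlapped under each treatment through 1 Ad-FAT10 liver, at 3.90 CPM under CMC and at 625 CPM under pemafibrate. Their difference was nevertheless called under both, Ad-FAT10 being the higher under CMC and the lower under pemafibrate. Both differences enter the interaction, the first of them at CMC levels of 11.2 CPM or less. Pdk4 rose by 7.77 in Ad-CTRL livers and by 5.91 in Ad-FAT10 livers, so 76.0% of the log2 response was kept. The interaction of -1.86 ± 0.36 lay just inside the threshold (adjusted p = 0.0492). It was lost with RLE scaling, upper-quartile scaling or library totals, and without Ad-FAT10 Pema replicates 1 and 3, the highest of these adjusted p-values being 0.0725. The values under all these settings ran from -1.96 to -1.73.

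None of the other 19 genes of FAT10 and PPARα biology that were listed by name had a called interaction. For 11 of them the 95% interval of the interaction stayed within a 2-fold difference, and for 8 it reached beyond it. The value was below 0 for 16 of the 19, as for 7668 of the 14770 genes tested. The whole interval was below 0 for 5, Cyp4a14, Ehhadh, Vnn1, Crat and Acot2. These genes were chosen by name and share the same livers, so the counts carry no test. Acaa1b, a peroxisomal thiolase, had an interaction of -0.06 (95% interval -0.54 to 0.42), and for Hsd17b4, the peroxisomal multifunctional protein, it was -0.13 (-0.48 to 0.23). Cpt1a, the entry gate of mitochondrial oxidation, had -0.27 (-0.66 to 0.12). The lipid droplet coat Plin2 had -0.10 (-0.55 to 0.34), the fatty acid transporter Cd36 -0.26 (-0.83 to 0.31) and the carnitine transporter Slc22a5 -0.35 (-0.77 to 0.07). These intervals hold 0, and they bound the difference without showing that the responses were equal.

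The interval reached past a 2-fold difference for Cyp4a14, Fgf21, Cyp4a10, Ehhadh, Vnn1, Crat, Acot2 and Ubd. Cyp4a14, a fatty acid ω-hydroxylase, had -1.57 (-3.10 to -0.05, adjusted p = 0.453), and 1 Ad-FAT10 CMC liver at 188.5 CPM stood apart from its group, whose others were at 58.3 CPM or less. Without that liver, replicate 1, the interaction of Cyp4a14 was -0.80, and without Ad-CTRL CMC replicate 2 it was -2.30. Fgf21, the fasting hormone, had -0.89 (-2.16 to 0.38) and Cyp4a10 -0.30 (-1.28 to 0.68). Cyp4a and Acot genes have near-identical relatives, so their counts are uncertain. Ehhadh, the peroxisomal bifunctional enzyme, had -0.84 (-1.53 to -0.14, adjusted p = 0.374), or -0.45 without Ad-FAT10 CMC replicate 1, and Vnn1, a pantetheinase, -0.63 (-1.20 to -0.06, adjusted p = 0.417). Crat, carnitine acetyltransferase, had -0.61 ± 0.19 (adjusted p = 0.244) with 81.1% of its log2 response kept. Acot2, a mitochondrial acyl-CoA thioesterase, had -1.10 ± 0.34 (adjusted p = 0.247), which passed without Ad-FAT10 CMC replicate 2 (adjusted p = 0.0268) and in no other fit that left out 1 library. Among regulators of transcription Ppara had -0.33 (-0.80 to 0.14), its partner Rxra -0.08 (-0.45 to 0.29), and the coactivator gene Ppargc1a 0.06 (-0.51 to 0.62). Ubd itself had -0.34 (-1.35 to 0.67). Fabp1, the liver fatty acid-binding protein, and Angptl4, an inhibitor of lipoprotein lipase, had interactions above 0, 0.41 (-0.07 to 0.89) and 0.38 (-0.18 to 0.93).

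**Figure D3:**
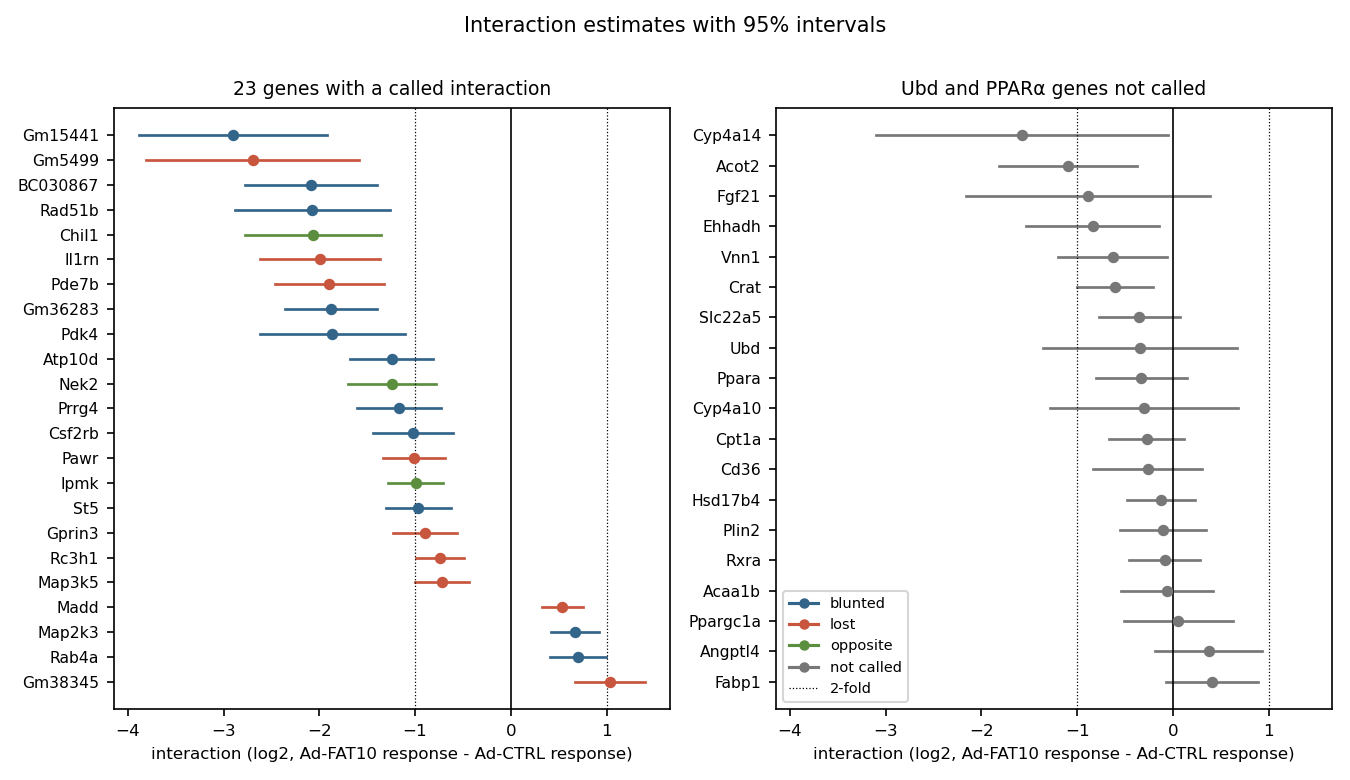
Interaction (log2, Ad-FAT10 response minus Ad-CTRL response) with its 95% interval for the 23 called genes on the left, coloured by class, and for Ubd and the listed PPARα genes that were not called on the right; dotted lines mark a 2-fold difference. Intervals of the called genes stay clear of 0, from -2.90 for Gm15441 to 1.03 for Gm38345, and 11 of the 19 others lie wholly between the dotted lines.

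The PPARα target list as a whole rose in both adenoviruses. Its 62 tested members had a median log2 response of 1.84 with Ad-CTRL and 1.87 with Ad-FAT10. In each 59 were called higher, where 16.2% and 12.9% of all genes were. The median interaction was -0.09 (quartiles -0.33 and 0.14), against -0.01 (-0.19 and 0.18) over all genes tested, and without Ad-FAT10 CMC replicate 1 it was 0.01. For 42 members the 95% interval stayed within a 2-fold difference, as it did for 72.9% of all genes. The mean level of the members per library was 5.78 to 6.04 log2 CPM under CMC and 8.27 to 8.64 under pemafibrate in Ad-CTRL livers, and 5.30 to 5.72 and 7.91 to 8.08 in Ad-FAT10 livers. Both Ad-FAT10 groups were thus below the matching Ad-CTRL groups. Peroxisomal genes (43 tested) had a median interaction of 0.00 and mitochondrial oxidation and ketone genes (34 tested) one of 0.05, with no called member in either.

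Promoters were read for the direct repeat that PPARα and RXR bind, so that called genes and listed targets that were not called can be set side by side. RefSeq promoters (GRCm38.p6, 250 bases before to 50 after the start) were found for 15 of the 23 called genes, 19 promoters in all, and for 13 listed genes that were not called. The repeat was searched on both strands as 2 copies of AGGNCA with any 1 base between them, and a single AGGTCA was searched as a shorter motif that can overlap it. The repeat was in 0.381% of all 32851 promoters, in none of the 19 and in Fabp1 among the 13 genes. The shorter motif was in 16.3% of all promoters, in 4 of the 19 of called genes (21.1%; Il1rn, Madd, Prrg4 and Rad51b) and in 5 of 14 of the genes not called (35.7%; Cd36, Cpt1a, Fabp1, Plin2 and Rxra). Printed here are the promoter of Fabp1 with the repeat in capitals, 67 bases before the start, that of Il1rn (the first of 3) with the shorter motif in capitals, 189 bases before the start, and that of Pdk4, with neither. Both matches lie on the strand opposite to the printed one, so AGGTCA reads TGACCT in the lines. A match is a description of these letters and no evidence of binding.
Fabp1 promoter, GRCm38.p6, chr6:71199629-71199928, plus strand: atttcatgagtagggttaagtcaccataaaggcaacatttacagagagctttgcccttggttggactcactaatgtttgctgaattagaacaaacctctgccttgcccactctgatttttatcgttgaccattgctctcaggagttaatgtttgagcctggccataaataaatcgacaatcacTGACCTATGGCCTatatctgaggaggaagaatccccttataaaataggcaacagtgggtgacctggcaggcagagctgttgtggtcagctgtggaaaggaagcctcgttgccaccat
Il1rn promoter, GRCm38.p6, chr2:24336610-24336909, plus strand: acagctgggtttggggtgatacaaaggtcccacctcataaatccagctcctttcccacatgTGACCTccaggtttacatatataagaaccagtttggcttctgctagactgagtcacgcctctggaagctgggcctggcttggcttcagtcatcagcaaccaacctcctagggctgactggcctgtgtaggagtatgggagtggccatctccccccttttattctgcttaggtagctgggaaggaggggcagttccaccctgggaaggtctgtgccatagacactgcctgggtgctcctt
Pdk4 promoter, GRCm38.p6, chr6:5496229-5496528, minus strand: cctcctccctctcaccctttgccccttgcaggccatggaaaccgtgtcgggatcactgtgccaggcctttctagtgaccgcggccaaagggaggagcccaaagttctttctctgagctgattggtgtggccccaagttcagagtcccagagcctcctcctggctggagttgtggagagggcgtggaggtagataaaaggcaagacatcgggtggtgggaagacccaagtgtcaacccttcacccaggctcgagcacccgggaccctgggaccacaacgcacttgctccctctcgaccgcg

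Most drug responses were present in both adenoviruses. Of the 602 genes that rose at least 2-fold with pemafibrate in Ad-CTRL livers, 587 were also higher in Ad-FAT10 livers and 512 passed the test there. Of the 575 genes that fell at least 2-fold, 558 were also lower in Ad-FAT10 livers and 408 passed the test there. The median gene kept 78.9% of its log2 response among the rises (quartiles 60.8% and 95.6%) and 68.3% among the falls (48.1% and 88.2%). Genes picked for a large response in one adenovirus tend to be smaller in the other, so the reverse choice was made too. Genes picked on a 2-fold rise in Ad-FAT10 livers (460) had a median Ad-CTRL response of 104% of theirs, and those picked on a fall (441) one of 92.1%. Among the Ad-CTRL picks the 95% interval of the interaction lay within a 2-fold difference for 268 rises and 162 falls, and wholly outside it for 11 and 4. For the rest the interval crossed a 2-fold limit, so a difference of that size was neither shown nor bounded.

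By edgeR no response was called as gained with FAT10, while other tools called some. Nr1i3 encodes CAR, a nuclear receptor of drug and hormone metabolism. Nr1i3 stood at 36.9, 37.1, 38.1 and 31.1 CPM in the Ad-CTRL CMC livers and at 32.5, 39.0, 36.3 and 37.8 CPM in the Ad-CTRL Pema livers. The Ad-FAT10 CMC livers held 11.6, 11.2, 11.4 and 9.00 CPM and the Ad-FAT10 Pema livers 16.7, 21.01, 13.6 and 24.0 CPM. All Ad-FAT10 livers lay below all Ad-CTRL livers, and pemafibrate raised the level in Ad-FAT10 livers by 0.80 (adjusted p = 0.000428), against 0.02 in Ad-CTRL livers. The interaction of 0.78 ± 0.20 had an edgeR adjusted p of 0.149, and was called by DESeq2 (adjusted p = 0.0245) and limma voom (adjusted p = 0.0143). Il1b, the cytokine that Il1rn's product antagonises, had an interaction of -1.37 ± 0.35 (edgeR adjusted p = 0.155, DESeq2 0.0241, voom 0.0351). It was at 2.98 to 5.87 and 4.74 to 7.84 CPM in the Ad-CTRL groups and at 7.49 to 14.6 and 4.08 to 7.80 CPM in the Ad-FAT10 groups, whose ranges overlapped. Its response was 0.55 with Ad-CTRL (adjusted p = 0.1175) and, in the opposite direction, -0.82 with Ad-FAT10 (adjusted p = 0.017). Hnf4a, a master regulator of hepatocyte genes, had -0.49 ± 0.13 (edgeR adjusted p = 0.189, DESeq2 0.00762, voom 0.0754). Its levels were at 578 to 629.5 CPM under CMC and 633 to 754 CPM under pemafibrate in Ad-CTRL livers, and 654 to 749.7 and 519 to 636 CPM in Ad-FAT10 livers, where it fell by 0.28 (adjusted p = 0.0366). In Ad-CTRL livers its response went the other way, by 0.21, and did not pass (adjusted p = 0.113). These genes were chosen for the text after their values were seen.

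Gene lists were described by their counts and medians, all set against the median of -0.01 over all genes tested. The type I interferon-stimulated genes had the highest median interaction with all 16 libraries, 0.38 (quartiles 0.19 and 0.56, 38 tested), and none was called, 8 passing at an unadjusted p, all with positive values, where 4.48% of all genes did so. In that list 10 genes fell and 1 rose with pemafibrate in Ad-CTRL livers (14.4% and 16.2% of all genes). In Ad-FAT10 livers 2 fell and 1 rose (12.5% and 12.9% of all genes). Stat2, a transcription factor of the interferon response, was at 91.1 to 106 CPM under CMC and 63.3 to 75.3 CPM under pemafibrate in Ad-CTRL livers, and 93.6 to 104 and 83.8 to 95.7 CPM in Ad-FAT10 livers (interaction 0.39 ± 0.12, adjusted p = 0.224). Usp18, a protease that removes the ubiquitin-like ISG15, had 0.61 (adjusted p = 0.411) and Isg15 0.71 (adjusted p = 0.493). The median of the list ran from 0.21 to 0.53 when each library was left out in turn. Without Ad-FAT10 Pema replicates 1 and 3 it was 0.30, below the 0.43 of the cytochrome P450 list and the 0.37 of the B and plasma cell markers.

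Cytochrome P450 genes of families 1 to 3, which handle drugs and steroids, had a median of 0.32 (quartiles -0.04 and 0.84, 38 tested), with 10 at an unadjusted p, all with positive values (4.48% of all genes), and none called. With each library left out the median ran from 0.16 to 0.59. In Ad-CTRL livers 21 of them fell and 2 rose with pemafibrate (14.4% and 16.2% of all genes). In Ad-FAT10 livers 14 fell and 4 rose (12.5% and 12.9% of all genes). Cyp3a11, the main mouse enzyme of its family in the liver, was at 1863 to 3557 and 1263 to 1774 CPM in the Ad-CTRL groups and at 2381 to 2927 and 2333 to 3840 CPM in the Ad-FAT10 groups (interaction 0.79 ± 0.27, adjusted p = 0.298). Cyp2c68 had 0.78 ± 0.21 (adjusted p = 0.179) and Cyp2a5 1.37 ± 0.47 (adjusted p = 0.286). The Cyp2a5 value leans on 1 liver, Ad-FAT10 Pema replicate 2 at 1496 CPM, while the others of its group were at 350 to 613 CPM. Close copies in these families can share reads.

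On the negative side the neutrophil markers stood lowest, with a median of -1.05 (quartiles -2 and -0.81, 11 tested). All 11 tested markers had values below 0, as did 7668 of the 14770 genes tested. The filter on low counts left 11 of 15 markers, and a marker can pass it through the Ad-FAT10 CMC group alone, where these were high. Mmp8 was at 0.0514 to 0.6005 CPM in Ad-CTRL livers and at 0.867 to 3.62 CPM in Ad-FAT10 CMC livers. Such a filter favours values below 0, and so near 3 counts a fall in Ad-CTRL livers could hardly be called. Nothing is therefore read from these counts of markers. At an unadjusted p 3 passed, all with negative values, as 6.3% of all genes did, and none was called. In Ad-FAT10 livers 10 of the 11 fell with pemafibrate (12.5% of all genes), and in Ad-CTRL livers none passed the test (median response -0.36). S100a8, a calcium-binding protein of neutrophils, was at 1.18 to 3.34 and 0.898 to 1.98 CPM in the Ad-CTRL groups and at 8.06 to 33.7 and 3.01 to 5.37 CPM in the Ad-FAT10 groups (interaction -1.52 ± 0.64, adjusted p = 0.403). The median of the list ran from -1.62 to -0.92 when each library was left out in turn. Genes of the NF-κB pathway and cytokines had a median of -0.26 (quartiles -0.49 and -0.03, 33 tested), and Il1rn was their only called member (-0.44 to -0.13 with each library left out). Tnfaip3, an inhibitor of NF-κB signalling, had -0.82 ± 0.27 (adjusted p = 0.265). The interferon-γ targets had -0.27 (quartiles -0.37 and -0.16, 28 tested), and -0.04 without Ad-CTRL Pema replicate 2. Of their values 25 of 28 were below 0, against 7668 of 14770 over all genes.

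Cholesterol synthesis genes had 24 of 26 values below 0, against 7668 of 14770 over all genes. Their median was -0.25, which was -0.01 without Ad-FAT10 Pema replicates 1 and 3. Of these 26 genes 4 rose and 3 fell in Ad-CTRL livers, where 16.2% and 14.4% of all genes did. In Ad-FAT10 livers 2 rose and 5 fell, where 12.9% and 12.5% of all genes did. Counts this close to the shares over all genes are not read as a shift of the list. Insig2, which holds back sterol synthesis, was at 103 to 168 CPM under CMC and 329 to 449.6 CPM under pemafibrate in Ad-CTRL livers, and 116 to 154 and 205 to 311 CPM in Ad-FAT10 livers (interaction -0.71 ± 0.22, adjusted p = 0.247). Cell cycle genes had a median of -0.20 (52 tested, none called), with 40 values below 0. At an unadjusted p 6 of them passed, all with negative values, as 6.3% of all genes did. Acute phase proteins had -0.22 (36 tested, with Il1rn the only called member). With each library left out these medians ran from -0.28 to -0.06 and from -0.35 to -0.05. Proteasome subunits, the machine that FAT10 feeds, had -0.08 (40 tested, none called), with 39 of the 95% intervals within a 2-fold difference. Of these subunits 32 rose with Ad-CTRL and 35 with Ad-FAT10 (16.2% and 12.9% of all genes). FAT10 and other ubiquitin-like conjugation genes had -0.01 (23 tested, none called). The lists not described here had medians from -0.29, for 9 resident Kupffer cell markers (-0.52 to -0.07 with each library left out, -0.72 without Ad-FAT10 Pema replicates 1 and 3), to 0.28, for 5 erythroid markers (-0.07 to 0.52 and 0.05), and by edgeR held 1 called gene, Pdk4 again, in the glucose list.

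**Figure D4:**
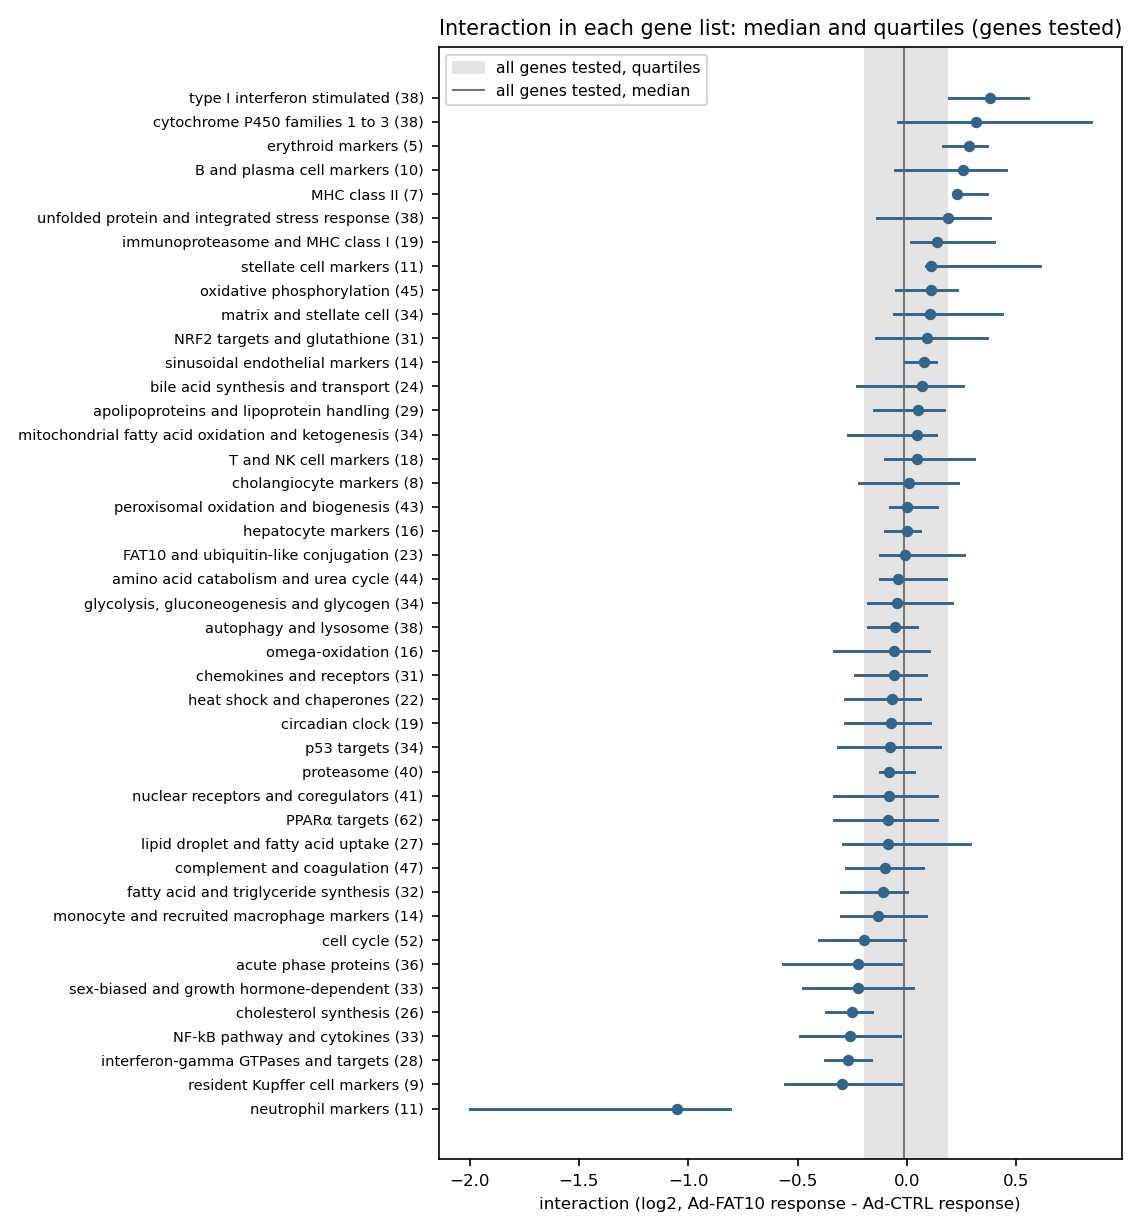
Median (point) and quartiles (line) of the interaction (log2, Ad-FAT10 response minus Ad-CTRL response) over the tested genes of each list, with the number tested in brackets; the grey band and line are the quartiles and median over all 14770 genes. Neutrophil markers lie lowest at -1.05 and type I interferon-stimulated genes highest, with all 16 libraries, at 0.38, while PPARα targets lie at -0.09.

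The remaining 4 called genes, like Gm36283, carry provisional names and were chosen for the text after their values were seen. Gm15441, a noncoding RNA whose exons overlap Txnip on the opposite strand, was at 0.411, 0.97, 0.370 and 0.669 CPM in Ad-CTRL CMC and at 307, 277, 352 and 328 CPM in Ad-CTRL Pema livers. In Ad-FAT10 livers it was at 4.72, 1.26, 1.92 and 1.27 CPM under CMC and at 171, 150.5, 142 and 145 CPM under pemafibrate. All groups were apart, the drug groups far above the vehicle groups. The fitted rise was 9.00 (log2) with Ad-CTRL against 6.10 in Ad-FAT10 livers, with an interaction of -2.90 ± 0.47 (adjusted p = 0.0148). Txnip, which encodes an inhibitor of thioredoxin, was itself at 98.6 ± 25.4, 226 ± 31.8, 72.4 ± 26.3 and 138 ± 8.58 CPM (SD, n = 4), in the same group order, with an interaction of -0.27 (adjusted p = 0.789). As the strand setting is not given, reads of the overlapping exons cannot be assigned to one or the other with certainty. BC030867, a protein-coding gene, rose by 2.82 and 0.73 (interaction -2.09 ± 0.33, adjusted p = 0.0135). It was at 0.277 to 0.566 CPM in Ad-CTRL CMC, not far above the level of 3 counts, and at 1.15 to 1.75 in Ad-FAT10 CMC. Gm38345, a transcript still to be verified, fell by 0.75 in Ad-CTRL livers, and its 0.28 in Ad-FAT10 livers did not pass (interaction 1.03 ± 0.17, adjusted p = 0.016). Gm5499, a processed pseudogene, was at 0.0924 to 0.231 CPM in Ad-CTRL CMC, near the level of 3 counts. It rose by 1.78 in Ad-CTRL livers, and its -0.915 in Ad-FAT10 livers did not pass, although the Ad-FAT10 groups did not overlap. Its interaction of -2.69 ± 0.53 had the largest adjusted p of the calls (0.04997).

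Across the 23 genes the adenoviruses differed under CMC alone for 8, under pemafibrate alone for 4 and under both for 11. The first set holds Il1rn, Pawr, Gm36283, BC030867, Nek2, Rad51b, Map2k3 and Rab4a, and the second Ipmk, Pde7b, Gprin3 and Map3k5. Nek2 did not pass under pemafibrate (adjusted p = 0.0555) although its groups there did not overlap. Of all genes tested, 42.6% differed between the adenoviruses under CMC and 41.7% under pemafibrate, genes that differed under both being counted in each share. The interaction is the difference between the comparison under pemafibrate and that under CMC. A called interaction thus favours genes that differ under either, and nothing is read from the split into these sets. In all 23 genes the Ad-CTRL CMC and Ad-CTRL Pema livers did not overlap, as in 30.6% of all genes tested, and in 15 the Ad-FAT10 groups did not overlap either, as in 25.4% of all. A called difference between responses favours genes with a response, so nothing is read from these counts. Being called for one of these comparisons and not for the other is not a test that they differ.

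How firmly a gene was called was read from 16 fits that each left out 1 library. Il1rn, Ipmk, Pde7b, Pawr, Rc3h1, St5, Atp10d, Gm36283, BC030867 and Gm15441 were called in all 16. Chil1 missed without Ad-CTRL Pema replicate 3 (adjusted p = 0.0511), and Gm38345 without Ad-CTRL Pema replicate 4 and Ad-FAT10 CMC replicate 3 (up to 0.06). Nek2 missed without Ad-CTRL CMC replicates 1 and 4, Ad-CTRL Pema replicates 3 and 4 and Ad-FAT10 CMC replicate 3 (up to 0.0794). Gprin3 missed without Ad-CTRL CMC replicates 1, 3 and 4, Ad-CTRL Pema replicates 3 and 4, Ad-FAT10 CMC replicate 3 and Ad-FAT10 Pema replicate 4 (up to 0.0794). Map2k3 and Prrg4 missed without Ad-CTRL CMC replicates 1, 3 and 4, Ad-CTRL Pema replicates 3 and 4, Ad-FAT10 CMC replicate 3 and Ad-FAT10 Pema replicates 2 and 4 (up to 0.0819 and 0.0949). Rad51b was called only without Ad-CTRL CMC replicate 3, Ad-CTRL Pema replicates 1 and 2, Ad-FAT10 CMC replicate 1 and Ad-FAT10 Pema replicates 1 and 3 (otherwise up to 0.0947). Map3k5 was called only without Ad-CTRL CMC replicate 2, Ad-CTRL Pema replicate 1, Ad-FAT10 CMC replicates 1 and 2 and Ad-FAT10 Pema replicate 3 (otherwise up to 0.1). Madd was called only without Ad-CTRL Pema replicate 1, Ad-FAT10 CMC replicates 1 and 3 and Ad-FAT10 Pema replicate 1 (otherwise up to 0.115). Csf2rb was called only without Ad-CTRL Pema replicate 1, Ad-FAT10 CMC replicate 4 and Ad-FAT10 Pema replicate 3 (otherwise up to 0.108). Gm5499 was called only without Ad-CTRL CMC replicate 2 and Ad-CTRL Pema replicates 1 and 2 (otherwise up to 0.15). Pdk4 and Rab4a were called only without Ad-FAT10 CMC replicate 2 and Ad-FAT10 Pema replicate 3 (otherwise up to 0.129 and 0.142). Without Ad-FAT10 Pema replicates 1 and 3 together, the call was lost for 11 genes. The adjusted p was 0.053 for Pdk4, 0.0726 for Gm38345, 0.0804 for Rad51b, 0.0822 for each of Rc3h1, Prrg4 and Csf2rb, and 0.0866 for Map2k3. It was 0.119 for Nek2, 0.127 for Gm5499, 0.134 for Madd and 0.159 for Map3k5. The sign of every called interaction was the same in all 16 fits, and over them Pdk4 ran from -2.06 to -1.62 and Il1rn from -2.25 to -1.83.

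The threshold of 0.05 fell in a dense stretch of genes. Just inside it lay Pdk4, Csf2rb and Rab4a (adjusted p = 0.0492 for each) and Gm5499, and just outside it 11 genes shared an adjusted p of 0.0504. Among these, Lrfn3, a synaptic adhesion molecule, rose by 2.49 and 1.46 (interaction -1.03 ± 0.21). Baiap2, an adaptor of actin remodelling, fell by 2.21 and 1.04 (1.17 ± 0.24). Usp31, a ubiquitin-specific protease gene, had -0.73 ± 0.15. All 3 were called by DESeq2 and by limma voom. Across 14738 genes, which share the same libraries and are not independent, the interaction had a Spearman correlation of -0.208 with transcript length and of 0.149 with GC content. After a correction for both, 41 genes were called, among them 22 of the 23, all but Gprin3.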

How the data were processed

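Poly(A) RNA of 16 mouse livers was sequenced with dUTP-stranded libraries on DNBSEQ, per the labels' protocols. The authors deposited a whole-number count per Ensembl gene for each liver. STAR (version 2.7.6), DESeq2 (versions 1.36.0 and 2.11.40.6) and the genome build GRCm39 appear in the submitters' processing notes. How reads were counted, with which annotation and strand setting, is not given in the sources used here. Of 55416 gene IDs, 52083 (94.0%) were given a symbol.

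Groups came from the sample titles. Counts were fitted in R 4.3.3 with edgeR 4.0.16 (quasi-likelihood test, TMM scaling, filterByExpr, 14770 genes, 1 mean per group). Adjusted p-values are Benjamini-Hochberg over all genes tested, called under 0.05, and every adjusted p without a tool named beside it is from this fit. A standard error is the log2 value divided by the root of the F statistic, and 95% intervals use the t distribution. CPM values are counts scaled to the TMM-adjusted library size and are compared within a gene, not between genes. The procedure was tested on simulated data. No replicate pair held identical counts.

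The genes named were 20 listed by name (others on that list are not reported here), the 6 with the largest called interaction in each class and direction (mean log2 CPM of at least 1, standard symbol), and up to 4 genes with the smallest p from each of 43 lists. The members and lists were chosen with earlier results of these data known. Alternatives were other scalings, filters and tools (DESeq2 1.42.0, limma 3.58.1 voom with quality weights), a replicate block, and each library left out. A correction for length and GC content and a fit without 2 libraries were added after seeing the data. Genome sequence of the build the files use was not used here.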

Additional observations from a re-analysis of the deposited data

Results flagged for a closer look

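The drug response differed between the adenoviruses, by the edgeR interaction term, for 23 genes (log2, Ad-FAT10 response minus Ad-CTRL response). For genes with known roles in inflammation the interaction was -1.996 for Il1rn, -2.06 for Chil1, -1.02 for Csf2rb and -0.74 for Rc3h1. For those with roles in cell death, division and repair it was -1.01 for Pawr, -1.24 for Nek2 and -2.07 for Rad51b. For those with roles in signalling it was -0.99 for Ipmk, -1.895 for Pde7b, -0.90 for Gprin3, -0.72 for Map3k5 and 0.67 for Map2k3. For those with roles in membranes and their traffic it was -0.97 for St5, -1.25 for Atp10d, -1.16 for Prrg4, 0.70 for Rab4a and 0.54 for Madd. Pdk4, the metabolic kinase, had -1.86. Genes with provisional names had -1.88 for Gm36283, -2.09 for BC030867, -2.90 for Gm15441, 1.03 for Gm38345 and -2.69 for Gm5499.

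Single livers stood apart from the other 3 of their group by Dixon's test in 9 of 168 groups of 4, and chance flags about 1 in 20 groups. In Ad-CTRL CMC they were replicate 3 for Gm36283 (0.508 CPM), replicate 1 for Il1rn (15.3 CPM) and replicate 3 for Ppara (153 CPM). In Ad-CTRL Pema they were replicate 2 for Nek2 (9.46 CPM) and replicate 1 for Fabp1 (17320 CPM). In Ad-FAT10 CMC replicate 1 stood apart for Rc3h1 (38.0 CPM) and for Cyp4a14 (188.5 CPM). In Ad-FAT10 Pema replicate 1 stood apart for Ehhadh (8831 CPM) and for Angptl4 (368 CPM).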

How the results depend on the processing

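Against 23 called interactions, 93 were called with no filter on low counts, 120 by DESeq2, 87 by limma voom and 41 after the length and GC correction, which was added after seeing the data. More positive responses numbered 28, 39, 22 and 11 in that order, and more negative ones 65, 81, 65 and 30. In the same order the blunted genes numbered 41, 39, 30 and 21. Lost genes numbered 34 with no filter, 57 by DESeq2 and 39 by voom. Opposite responses numbered 6 by DESeq2, 11 by voom and 7 after the correction, and gained ones 14 with no filter, 17 by DESeq2, 7 by voom and 1 after the correction. DESeq2 alone called an amplified gene, 1 (Elmod3). RLE scaling called 20 genes, upper-quartile scaling 22, library totals alone 18, the stricter filter 24 and the fit without mitochondrial genes 23. Pdk4, Csf2rb and Gm5499 were lost with each of these scalings, and Nek2, Prrg4, Map3k5 and Madd were also lost with library totals. The cause of these differences was not tested. Without Ad-FAT10 Pema replicates 1 and 3, another choice made after seeing the data, 5 genes were blunted, 0 opposite and 1 gained (Nr1i3). Within a 1.5-fold instead of a 2-fold limit the intervals of 106 genes with a 2-fold response in Ad-CTRL livers lay wholly inside, against 268 rises and 162 falls.

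Replicate numbers did not pair the livers. The correlation of same-numbered livers' deviations ran from -0.172 to 0.172 over 24 pairs, 3 above 0.1, and 4 of 16 livers were closest to their own number. With the replicate block 16 genes were called, 14 of them among the 23, all more negative (0 more positive), with 7 blunted, 1 opposite and 1 gained (Fmr1nb).

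Leaving out 1 library at a time gave 11 to 36 called genes, fewest without Ad-CTRL Pema replicate 3 or 4 and most without Ad-CTRL Pema replicate 1. More positive responses then numbered 0 to 9, more negative 10 to 32, blunted 5 to 16, lost 3 to 17, opposite 0 to 5 and gained 0 to 2. The 23 interactions kept their sign in every fit that tested them. Values near 0 changed sign: Ubd ran from -0.58 to 0.064, Cyp4a10 from -0.55 to 0.10, Rxra from -0.16 to 0.022, Acaa1b from -0.19 to 0.11 and Ppargc1a from -0.056 to 0.20. The interaction of Acaa1b was also 0.006952 with library totals alone and 0.053 by voom, and Ppargc1a at -0.038 by voom. Genes near 3 counts per library, such as Gm5499, are limited by depth, and DESeq2 gave it no adjusted p.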
